A study of Homo sapiens with 11 samples.

Results

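The genes described are 10 protein-coding genes of the human mitochondrial genome, the rows named ND1, ND2, ND3, ND4, ND5, CYTB, COX1, COX2, COX3 and ATP6 in a table of read counts. All 10 names were found, each in 1 row, among 38021 genes. They were measured by RNA sequencing in wild-type HEK293T cells, a line derived from human embryonic kidney, after 6 h of treatment. The 11 conditions were vehicle (0.1% DMSO), thapsigargin at 500 nM (Tg), AA147 at 10 µM, and AA132 at 0.1, 0.3, 1, 3, 6, 10, 15 or 30 µM. Tg inhibits the pump that loads calcium into the endoplasmic reticulum (ER), which disturbs protein folding there. AA147 and AA132 are small molecules that the study examined for their effects on ER protein homeostasis. Each condition has 3 numbered columns, called libraries here, which makes 33. Whether these came from separate cultures is not given in the labels, so every p-value measures the spread between these libraries, which may be technical.

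Mitochondrial DNA is transcribed inside the organelle by its own RNA polymerase, POLRMT, into long transcripts that each hold many genes. Enzymes cut the tRNAs out of these transcripts, which frees most of the mRNAs lying between them, and a dedicated polymerase, MTPAP, adds their tails. The mRNAs encode core subunits of the respiratory chain. ND1 to ND5 belong to complex I (NADH dehydrogenase), CYTB to complex III, COX1 to COX3 to complex IV (cytochrome c oxidase) and ATP6 to the ATP synthase. The levels of mRNAs from 1 shared transcript can still differ, through processing and decay. The names COX1 and COX2 here mean cytochrome c oxidase subunits. The prostaglandin synthase genes that once carried those names are separate rows, PTGS1 and PTGS2.

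All 10 genes lie on the same strand, the plus strand of chrM in GENCODE v44 on GRCh38, and each is a single exon. The complex I genes are ND1 (chrM:3307-4262), ND2 (chrM:4470-5511), ND3 (chrM:10059-10404), ND4 (chrM:10760-12137) and ND5 (chrM:12337-14148). CYTB spans chrM:14747-15887. The complex IV genes are COX1 (chrM:5904-7445), COX2 (chrM:7586-8269) and COX3 (chrM:9207-9990), and ATP6 spans chrM:8527-9207. The last 24 bases of each gene are shown because these mRNAs differ in how they end, with the stop codon, or the part of it that the DNA encodes, in capitals.
ND1: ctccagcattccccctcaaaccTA
ND2: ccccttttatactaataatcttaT
ND3: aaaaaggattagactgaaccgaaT
ND4: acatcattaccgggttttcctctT
ND5: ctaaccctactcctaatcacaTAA
CYTB: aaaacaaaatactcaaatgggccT
COX1: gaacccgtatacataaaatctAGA
COX2: atagggcccgtatttaccctaTAG
COX3: tctccatctattgatgagggtctT
ATP6: ctctacctgcacgacaacacaTAA
A whole stop codon stood at the end of 4 genes, while 5 ended in T alone and 1 in TA. In those 6 mRNAs the tail of A residues completes the stop codon, and the vertebrate mitochondrial code reads AGA at the end of COX1 as a stop.

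ATP6 begins inside ATP8, so reads from the shared bases can belong to either. The bases that the pair share are in capitals below, with 30 bases on each side.
ATP8/ATP6: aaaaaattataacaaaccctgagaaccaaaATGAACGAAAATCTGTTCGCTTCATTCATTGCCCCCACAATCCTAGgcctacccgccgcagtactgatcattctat
ND4 likewise begins inside ND4L, over the bases in capitals here.
ND4L/ND4: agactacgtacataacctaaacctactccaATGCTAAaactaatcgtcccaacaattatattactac
The shared run is 46 bases for ATP8 and ATP6 and 7 bases for ND4L and ND4. ATP6 and ATP8 held fractional counts in 28 of the 33 libraries, and the other 9 members held whole counts in all 33. Where these fractions come from is not given in the sources used here. The nuclear genome also carries copies of mitochondrial sequence, and reads from such copies cannot be told apart from those of the members here.

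Library totals ran from 32.3 to 37.96 M counts. The HEK293T markers NEFL, NEFM, INA, EYA1 and, at up to 1.53 CPM, PAX2 had counts in every library, while 6 markers of blood, liver, endothelial and muscle cells stayed at or below 0.191 CPM. The ER chaperone HSPA5 went from 959 ± 72.6 CPM (SD, n = 3) in vehicle to 11020 ± 276 CPM under Tg, and the oxidative stress gene HMOX1 from 13.1 ± 2.86 to 201 ± 10 CPM at 30 µM AA132. A pair of libraries stood out of step with their labelled doses. The library labelled AA132 1 µM library 1 had 1660 CPM of HSPA5 and 39.8 CPM of HMOX1, where the other two at that dose had 1028 and 1092 CPM of HSPA5. The library labelled AA132 3 µM library 3 had 1042 CPM of HSPA5 and 14.2 CPM of HMOX1, where the other two at that dose had 1920 and 1969 CPM of HSPA5. Each was closer in HSPA5 to the other dose than to its own, and whether the pair was exchanged cannot be told from the files. Both were kept under their labels, and values at 1 and 3 µM are also given without them. AA132 10 µM library 1 was also low for its dose, with 1853 CPM of HSPA5 against 2686 and 2835 CPM. Its HMOX1 was 70.7 CPM against 126 and 118 CPM, where the 6 µM libraries had 68.8, 76.3 and 66.4 CPM. It was kept under its label and is not part of the pair left out together. Vehicle library 1 also stood apart. Over all genes its chi-square per degree of freedom was 59.4 against vehicle library 2 and 46.2 against library 3, where libraries 2 and 3 gave 7.47 against each other. Library 1 also stood apart at 10 µM AA132, with 36.1 and 33.7 against libraries 2 and 3, which gave 6.52 against each other. Under AA147 library 1 gave 23.01 and 22.15, where libraries 2 and 3 gave 4.83. Without vehicle library 1 the genes called went from 190 to 506 at 6 µM AA132, from 250 to 651 at 10 µM and from 1255 to 2017 at 30 µM, and no member was called against vehicle in any treatment.

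In vehicle the 10 mRNAs together took 3.31 ± 0.103% of all counts (SD, n = 3), and over the 33 libraries 2.37% to 4.40%. Their levels are compared per kilobase of gene, as CPM per kb, since longer mRNAs collect more reads. COX3 was the most abundant in vehicle at 7664 ± 33.3 CPM per kb, followed by COX1 at 6303 ± 263 and COX2 at 5683 ± 591. ATP6 followed at 3838 ± 340 CPM per kb and ND3 at 2901 ± 334. Among the 10, the complex IV mRNAs and ATP6 thus stood above every complex I mRNA and CYTB. ND4 was at 1998 ± 75.5, CYTB at 1956 ± 53.2 and ND2 at 1821 ± 138 CPM per kb. The least abundant members were ND5, at 1116 ± 175 CPM per kb, and ND1, at 1011 ± 31. Neighbours in this order whose vehicle libraries overlapped were COX1 and COX2, ND4 and CYTB, CYTB and ND2, and ND5 and ND1. The other 5 steps in the order separated the libraries fully.

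The order hardly moved with treatment. COX3, ATP6, ND3 and ND2 held rank 1, 4, 5 and 8 by mean CPM per kb in all 11 conditions. Exchanges took place only between neighbours that overlapped in vehicle. COX2 passed COX1 at 30 µM AA132, with 6617 ± 1490 against 6593 ± 1170 CPM per kb. ND1 passed ND5 under Tg, with 1288 ± 189 against 1254 ± 140 CPM per kb, and CYTB and ND4 changed places in 8 conditions.

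**Figure D1:**
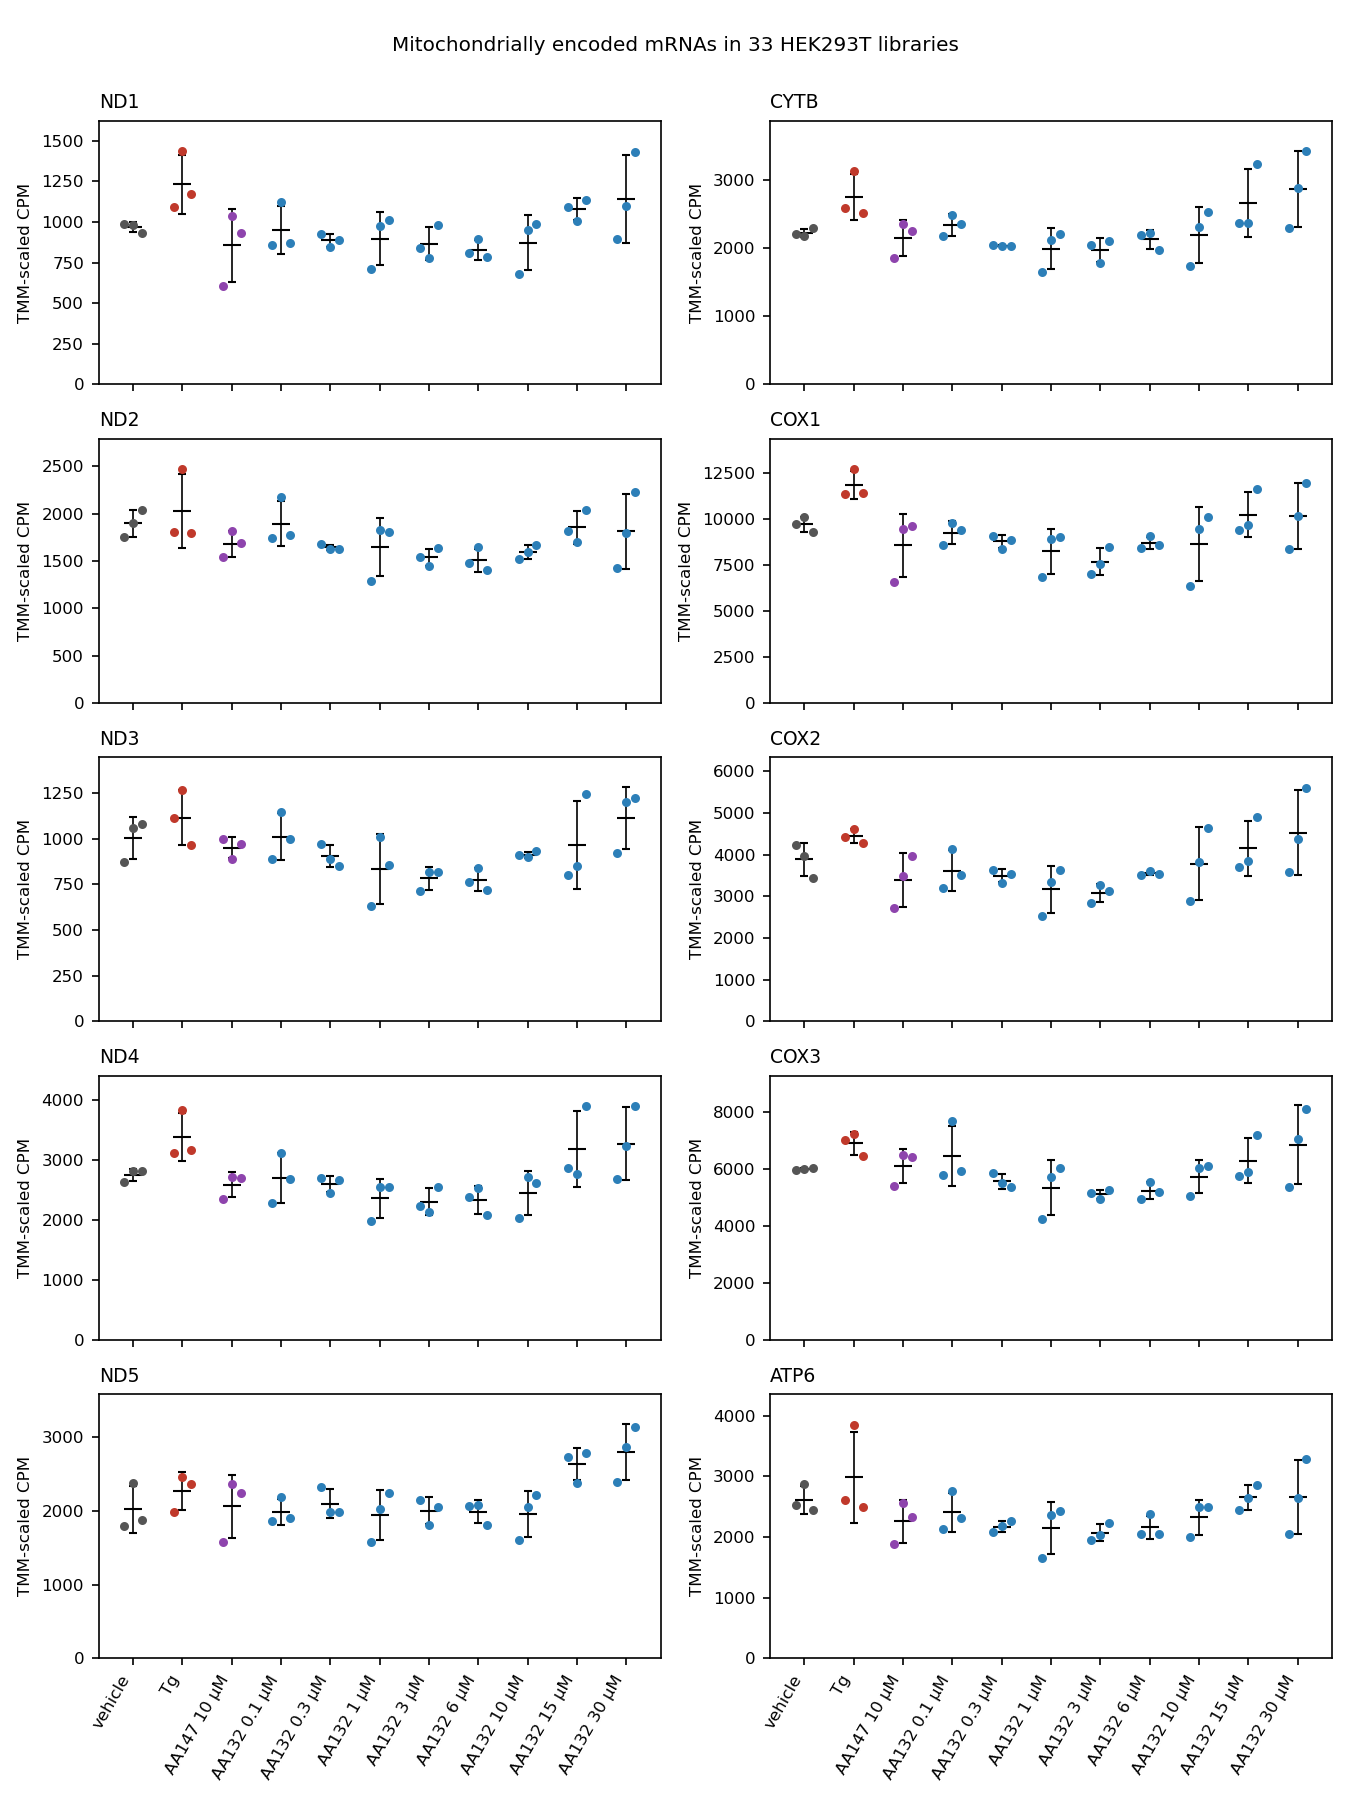
Levels of the 10 mRNAs in TMM-scaled CPM (vertical axes, each starting at 0) in the 11 conditions (horizontal axes). Points are the 3 libraries of a condition, and bars give the mean and SD. The highest mean lies under Tg for 7 mRNAs and at 30 µM AA132 for ND5, CYTB and COX2, and the lowest at 3 µM AA132 for 6.

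Tg was compared with vehicle to see how general ER stress moved these mRNAs. All 10 had a higher fitted level under Tg, and none passed an adjusted p of 0.05, where 31.2% of the 17793 genes tested passed. The median log2 fold change of the members was 0.20, with a range of 0.10 to 0.35, against 0.00485 over all genes tested. The lowest adjusted p among them was 0.0787, and 4 had an unadjusted p under 0.05. In a bulk sample a change in the number of cells of a kind and a change in RNA per cell cannot be told apart, and CPM gives only a level relative to the rest of the RNA.

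Among the complex I mRNAs, ND1 had the largest fitted difference under Tg. Its levels were 989, 979 and 933 CPM in vehicle and 1090, 1435 and 1169 CPM under Tg, a log2 difference of 0.35 ± 0.16 (SE, adjusted p = 0.0993). All 3 Tg libraries lay above the vehicle libraries, with library 2 the highest. ND4, a subunit of the proton-pumping membrane arm, had 2632, 2813 and 2812 CPM in vehicle and 3123, 3845 and 3173 CPM under Tg (log2 0.30 ± 0.13, adjusted p = 0.0871), also without overlap. ND2 overlapped, with 1753, 1898 and 2041 CPM in vehicle and 1808, 2476 and 1799 CPM under Tg (log2 0.10 ± 0.13, adjusted p = 0.616). ND3 and ND5 also overlapped with vehicle, with log2 differences of 0.15 ± 0.14 and 0.17 ± 0.14.

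CYTB, the only complex III subunit encoded in mitochondria, had the lowest adjusted p of the 10. It measured 2220, 2177 and 2297 CPM in vehicle and 2590, 3143 and 2524 CPM under Tg (log2 0.30 ± 0.13, adjusted p = 0.0787). COX1, which holds the oxygen-reducing centre of complex IV, measured 9746, 10110 and 9302 CPM in vehicle and 11375, 12749 and 11452 CPM under Tg (log2 0.29 ± 0.13, adjusted p = 0.108). Neither gene had a Tg library inside the vehicle range. COX2 and COX3 were also separated from vehicle, with log2 differences of 0.19 ± 0.15 and 0.20 ± 0.12, so 6 of the 10 lay fully above vehicle, where 20.2% of genes tested did. ATP6 overlapped, with 2526, 2877 and 2439 CPM in vehicle and 2619, 3852 and 2496 CPM under Tg, and its high library 2 carried most of its log2 difference of 0.19 ± 0.15.

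The count of calls under Tg depended on the fit. A fit of Tg and vehicle alone called ND1 (adjusted p = 0.0452), ND4 (0.0481), CYTB (0.0476) and COX1 (0.0215), all higher, and a fit without the filter on low counts called the same 4 genes and COX3. No fit that left out a single library called any member, and the median stayed between 0.16 and 0.26. Without Tg library 2 the fitted values of ND2 and ATP6 were -0.07 and -0.03, so the higher level of all 10 rested on that library. Without vehicle library 1 the same 6 members lay fully above vehicle, where 27.8% of genes tested did.

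**Figure D2:**
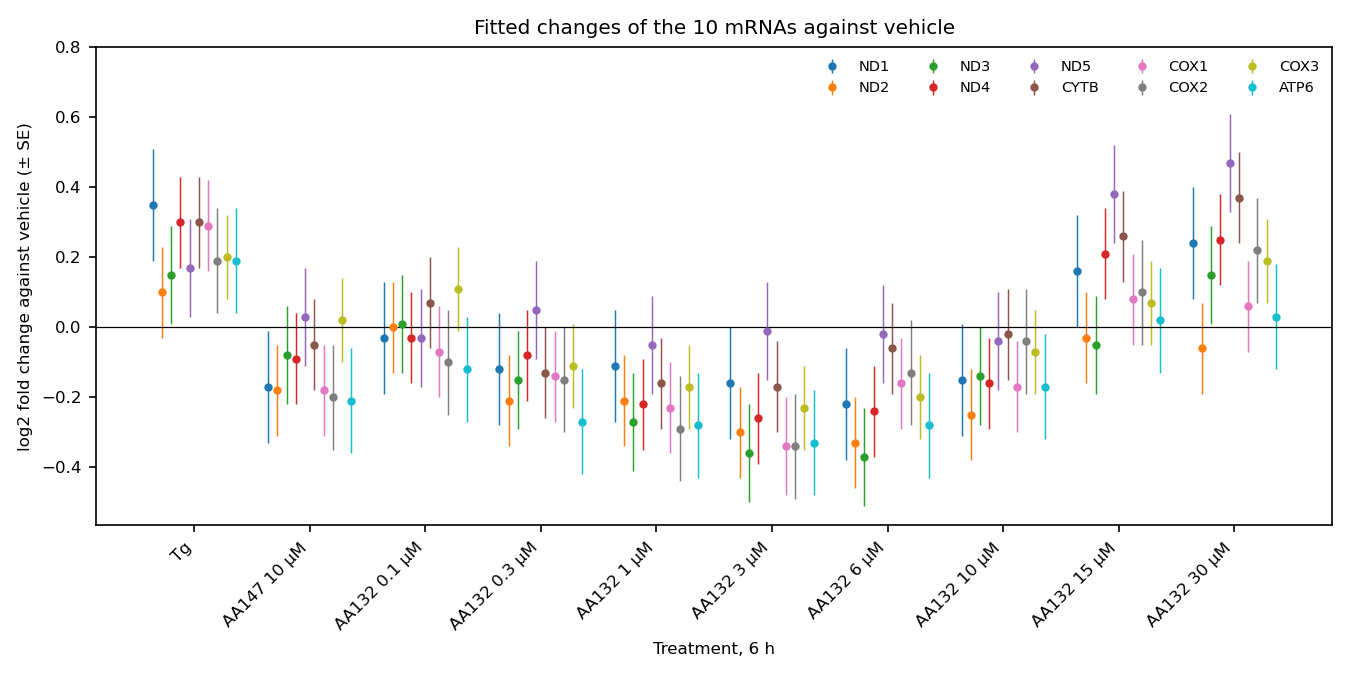
Fitted log2 fold change of each of the 10 mRNAs (vertical axis) for each treatment against the shared vehicle libraries (horizontal axis). Points are fitted values and bars 1 SE, coloured by gene. All 10 lie above 0 under Tg, all 10 below 0 from 1 to 10 µM AA132, and 9 above 0 at 30 µM.

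AA132 was tested over 8 doses against the same 3 vehicle libraries that served Tg and AA147, so the comparisons share their controls. The summed level of the 10 mRNAs was 33102 ± 1046 CPM in vehicle. At 0.1 µM AA132 it stood at 32660 ± 3638 CPM and at 0.3 µM at 30218 ± 1050 CPM. Means were lowest in the middle of the dose range, at 27439 ± 1557 CPM for 3 µM, a ratio of 0.829 to vehicle. At 15 µM the sum was 35733 ± 4557 CPM and at 30 µM 37233 ± 7164 CPM, ratios of 1.08 and 1.12. The sum at 3 µM lay below the vehicle range in all 3 libraries, with 26502, 26579 and 29237 CPM against 32761, 34275 and 32269 CPM. Without the library labelled AA132 3 µM library 3 the mean there was 26540 CPM, a ratio of 0.802, and without the library labelled AA132 1 µM library 1 the mean at 1 µM was 31339 CPM, a ratio of 0.947. At 30 µM the libraries spanned the vehicle range, with 30011, 37351 and 44337 CPM.

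No member was called at 0.1, 0.3 or 1 µM, where 0% of the genes tested were called. At those doses 796, 981 and 1057 genes had an unadjusted p under 0.05 in edgeR, none of them a member. At 0.3 µM 6 members lay fully below vehicle, where 4.18% of genes tested did, with a median log2 difference of -0.14 over the 10 and no adjusted p under 0.892. The nuclear-retained RNAs MALAT1, NEAT1 and KCNQ1OT1, summed, ranged there from 43.2 to 54.4 CPM and in vehicle from 37.8 to 48.3 CPM. Their median log2 difference was 0.325, none of the 3 was called, and their part in the result was not tested. At 1 µM 3 lay fully below, where 3.91% of genes did, with a median of -0.21. That value rested largely on the library labelled AA132 1 µM library 1, which held the lowest of the 33 values for ND2, ND3, ND4, CYTB, COX2, COX3 and ATP6. Without that library and the out-of-step 3 µM library, the median at 1 µM was -0.08 and ND1 and ND5 had fitted values of 0.04 and 0.08. The same 3 members lay fully below vehicle in the remaining 2 libraries at 1 µM, where 7.26% of genes tested did.

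At 3 µM all 10 members had lower fitted levels, with a median log2 difference of -0.28, and none was called, where 0.118% of genes tested were. Separation from vehicle without a call was seen for 8 of them, all but ND1 and ND5, where 5.34% of genes tested lay fully below. COX1 measured 7035, 7579 and 8466 CPM at 3 µM against 9746, 10110 and 9302 CPM in vehicle (log2 -0.34 ± 0.14, adjusted p = 0.429). ND3 measured 712, 820 and 817 CPM against 871, 1061 and 1079 CPM (log2 -0.36 ± 0.14, adjusted p = 0.419). COX2, with 2836, 3265 and 3137 CPM against 4242, 3971 and 3447 CPM, gave a log2 difference of -0.34 ± 0.15 (adjusted p = 0.475). ND5 had the smallest difference of the 10, with 2151, 1810 and 2059 CPM against 1798, 2384 and 1882 CPM (log2 -0.01 ± 0.14). Without the pair of out-of-step libraries the median at 3 µM was -0.34, the lowest adjusted p was 0.31 and there was still no call. The remaining 2 libraries at 3 µM lay below vehicle for 9 members, all but ND5, where 9.96% of genes tested did. Without vehicle library 1 the count at 3 µM was 8, where 15.9% of genes did. The 3 nuclear-retained RNAs ran from 45.7 to 62.3 CPM at 3 µM, with a median log2 difference of 0.385 and no call, and their part in the result was not tested. A fit without the low-count filter called 6 members at 3 µM, all lower.

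At 6 µM 7 members lay fully below vehicle, where 6.7% of genes tested did, and none was called, where 1.07% were. The median log2 difference was -0.21, with ND3 at -0.37 and ND5 at -0.02 as the extremes. At 10 µM ND2 alone lay below vehicle without overlap, where 4.69% of genes did, at 1516, 1597 and 1671 CPM against 1753, 1898 and 2041 CPM. None was called at 10 µM, where 1.41% of genes tested were, and the median was -0.14. One library carried that median. AA132 10 µM library 1 had 6344 CPM of COX1, the lowest of the 33, where the other two had 9491 and 10141 CPM. The same library held 83.5 CPM of the nuclear-retained RNAs combined, where the other two held 37.5 and 40.2 CPM, and their part in the result was not tested. Without it the members' median log2 difference at 10 µM was 0.00271.

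From 15 µM upward the fitted levels lay mostly above vehicle, led by ND5 and CYTB. At 15 µM 8 members had positive differences with a median of 0.09, and none was called, where 2.76% of genes tested were. ND5 measured 2735, 2383 and 2791 CPM against 1798, 2384 and 1882 CPM in vehicle (log2 0.38 ± 0.14, adjusted p = 0.131), with 1 treated library just inside the vehicle range. CYTB and ND1 lay fully above vehicle, where 8.87% of genes tested did. Without AA132 15 µM library 3 the members' median was -0.03.

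ND5, a large membrane subunit of complex I, was the single member called at 30 µM, where 7.05% of genes tested were called and 3.86% were called higher. It measured 2399, 2871 and 3144 CPM against 1798, 2384 and 1882 CPM in vehicle, and rose by a log2 of 0.47 ± 0.14 (SE, 1.39-fold, adjusted p = 0.0284). All 3 treated libraries lay above all vehicle libraries, the nearest pair being 2399 and 2384 CPM. CYTB was also fully separated, as were 10.1% of genes tested, with 2302, 2893 and 3432 CPM against 2220, 2177 and 2297 CPM (log2 0.37 ± 0.13, adjusted p = 0.0858). The other 8 overlapped with vehicle. ND4, COX2 and COX3 had log2 differences of 0.25 ± 0.13, 0.22 ± 0.15 and 0.19 ± 0.12, while COX1, ATP6 and ND2 stood at 0.06 ± 0.13, 0.03 ± 0.15 and -0.06 ± 0.13. The ND5 call was lost in 4 of 6 fits that left out a library of either group. Its adjusted p was 0.0764 without vehicle library 1, 0.1 without vehicle library 3, 0.0873 without 30 µM library 2 and 0.136 without 30 µM library 3. In a fit of these 2 conditions alone it was 0.197. Without 30 µM library 1 CYTB was called as well (log2 0.50, adjusted p = 0.0289). The members' median log2 difference at 30 µM was 0.205, and it was 0.35 without library 1 and 0.0435 without library 3. Without library 3 COX1 and ATP6 had fitted values of -0.07 and -0.15, and without library 1 ND2 had 0.08.

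A slope on log10 dose over the 24 AA132 libraries gives the change in log2 level for each 10-fold rise in dose. ND5 was the only member with a called slope, 0.15 ± 0.05 (SE, adjusted p = 0.0156), where 18.7% of genes were called. The next steepest slopes were those of CYTB, 0.12 ± 0.05 (adjusted p = 0.0754), and COX2, 0.12 ± 0.05 (adjusted p = 0.077). ND2 had the lowest slope, -0.01 ± 0.04. A straight line describes these mRNAs in part only, since 9 of the 10, all but ND5, had means at 3 or 6 µM below those at both 0.1 and 30 µM. Without the 30 µM libraries the ND5 slope was 0.08 (adjusted p = 0.271), and without 30 µM library 3 it was 0.12 (adjusted p = 0.0545). Leaving out the out-of-step pair kept the ND5 call (0.14, adjusted p = 0.0192).

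AA147 at 10 µM left the 10 mRNAs without a call, where 0.0225% of genes tested were called. The median log2 difference from vehicle was -0.13, with 8 lower and 2 higher, and 0 members had an unadjusted p under 0.05. Library 1 was low for 9 of the 10. ND1 measured 605, 1036 and 930 CPM, where vehicle had 989, 979 and 933 CPM, and COX1 measured 6609, 9474 and 9648 CPM. Without AA147 library 1 the median was -0.03. No member lay fully above vehicle, where 3.99% of genes tested did, and none fully below, where 3.47% did.

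AA132 and AA147 share 1 matched dose, 10 µM, and their libraries there were compared directly. None of the 10 differed by the test, where 0.0674% of genes tested were called, and the median log2 difference was -0.02. The approximate 95% interval of the difference was -0.34 to 0.19 for ND5 and -0.23 to 0.29 for CYTB, so both intervals include 0 as well as differences up to these bounds. AA132 at 30 µM and Tg at 500 nM are different agents at different doses, and their libraries were compared to set the largest AA132 dose beside Tg. None of the 10 was called, where 29.8% of genes tested were, and the median was -0.03. ND5 gave the lowest adjusted p, with a log2 value 0.30 ± 0.14 higher at 30 µM AA132 (adjusted p = 0.0908). It was called when libraries were scaled by their totals alone (0.34, adjusted p = 0.0422), in a fit of these 2 conditions alone (0.32, adjusted p = 0.013) and without 30 µM library 1 (0.41, adjusted p = 0.0414).

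The make-up of the pool was followed as the share of each mRNA in the summed counts of the 10, which removes any change that all share. At 30 µM ND5 made up 7.99%, 7.69% and 7.09% of the pool in the 3 libraries, against 5.49%, 6.95% and 5.83% in vehicle. CYTB made up 7.67%, 7.74% and 7.74%, against 6.78%, 6.35% and 7.12%. Both shares lay above every vehicle library. The shares of ND2 (4.76%, 4.80% and 5.01% against 5.35%, 5.54% and 6.33%), COX1 (27.4 ± 0.452% against 29.4 ± 0.477%) and ATP6 (7.12 ± 0.282% against 7.89 ± 0.445%) lay below. Full separation of a share was also seen at other doses, below vehicle for ATP6 at 0.1 and 0.3 µM and for ND2 at 6 µM, and above it for ND1 at 1 µM and CYTB at 15 µM. Under AA147 the share of COX3 lay above vehicle. The ratio of ND5 to ND2 counts was 1.68, 1.60 and 1.41 at 30 µM and averaged 1.42 ± 0.0703 at 15 µM, against 1.03, 1.26 and 0.922 in vehicle. Every library of both doses lay above the vehicle range, as did those at 6 µM, with 1.41, 1.27 and 1.29. At 0.1, 0.3 and 1 µM this ratio averaged 1.05 ± 0.0406, 1.28 ± 0.097 and 1.19 ± 0.0721. At 3 and 10 µM it averaged 1.3 ± 0.0835 and 1.22 ± 0.141, and the libraries of all these doses overlapped with vehicle. The ratio of ND5 to ND1 overlapped with vehicle at 30 µM, with 2.69, 2.62 and 2.20 against 1.82, 2.44 and 2.02. Under Tg the ratio of ND5 to ND2 was 1.14 ± 0.165, and its libraries overlapped with vehicle, and no member's share under Tg lay fully above or below vehicle. These shares and ratios were chosen after the values were seen and carry no test. Shares of the same pool are tied to each other, since higher shares of some mRNAs lower those of others. Full separation of 3 against 3 libraries in either direction has a probability of 0.1 under exact permutation of the labels. Some separations among the many shares can therefore arise by chance.

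**Figure D3:**
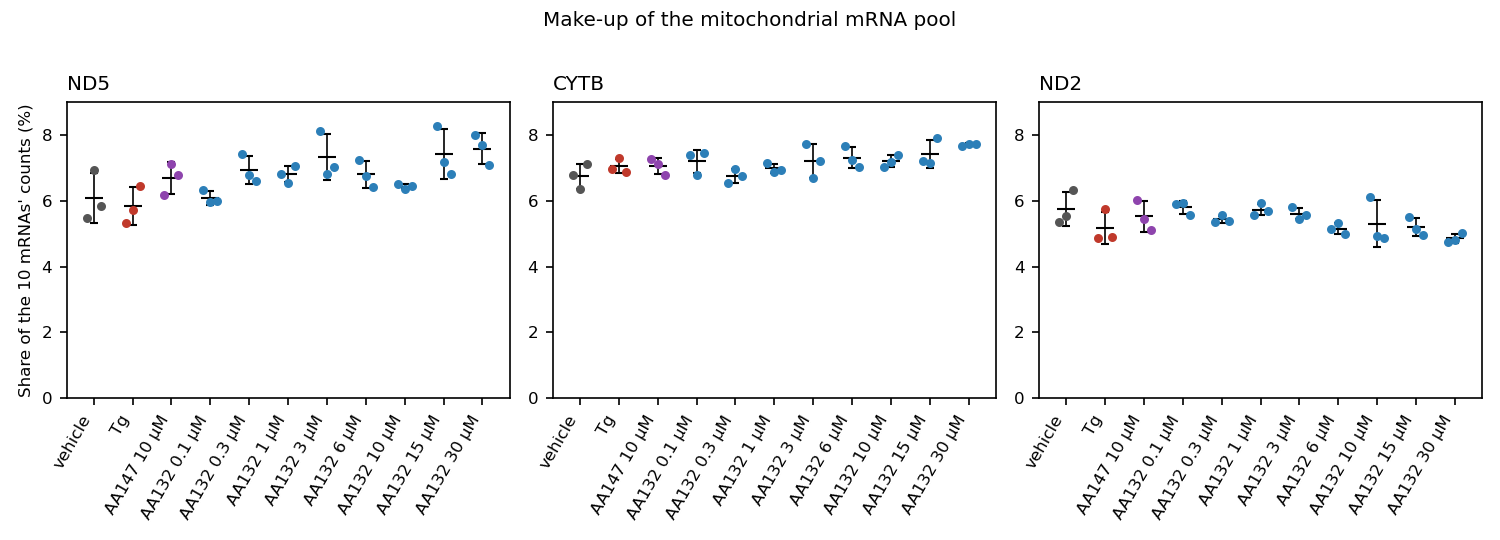
Share of ND5, CYTB and ND2 in the summed counts of the 10 mRNAs (vertical axes, percent, starting at 0) in the 11 conditions (horizontal axes). Points are libraries and bars the mean and SD. At 30 µM AA132 the shares of ND5 (7.59%) and CYTB (7.72%) lie above all vehicle libraries and that of ND2 (4.86%) below.

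The mRNAs also moved together from library to library within a condition. In 16 of the 33 libraries all 10 lay on the same side of their condition means, and in 23 at least 9 did. No such count was made for other genes, and libraries of a condition share their mean, so these counts carry no test. The strongest shared deviations were in AA132 30 µM library 1, where the 10 had a median 20.4% below their condition means, AA132 1 µM library 1 (20.2% below) and AA132 30 µM library 3 (19.3% above). The members' coefficient of variation (CV) between libraries of a condition had a median of 11.3%, where 79 other genes at least as abundant (from 943 CPM) had 4.17% and all genes tested 8.73%. Vehicle went the other way, with 5.88% for the members and 9.3% for the 79 genes. The members' CV was highest at 30 µM, at 19.9%, and lowest at 0.3 µM, at 4.49%.

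The other 27 rows of the mitochondrial genome hold 3 protein-coding genes (ND4L, ND6 and ATP8), 2 rRNAs and 22 tRNAs. ND4L and ATP8 overlap the members ND4 and ATP6, so their rows need not stand for separate mRNAs. Under Tg 2 rose and 3 fell, where 31.2% of genes tested were called, with a median log2 difference of -0.04 over the 27. RNR1, the small ribosomal RNA near the start of the main transcript, measured 995, 1031 and 949 CPM in vehicle and 562, 617 and 600 CPM under Tg, and fell by 0.74 ± 0.19 on the log2 scale (adjusted p = 0.00275). RNR2, the large ribosomal RNA encoded next to it, measured 7687 ± 351 and 7714 ± 406 CPM. RNR1 thus had a lower level under Tg, where all 10 mRNAs had higher fitted levels. The tRNA rows TRNF and TRNT also fell (by 0.79 ± 0.29 and 0.67 ± 0.18), and TRNM and TRNL1 rose (by 0.52 ± 0.18 and 0.49 ± 0.17). Rows of tRNA genes are short and adjoin the mRNAs, so reads from uncut transcripts and from tRNAs cannot be told apart there.

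The ratio of RNR1 to RNR2, chosen after its values were seen and not tested, set Tg and the higher AA132 doses apart from vehicle. It was 0.133, 0.127 and 0.126 in vehicle, 0.0756, 0.0755 and 0.0798 under Tg, and 0.0982, 0.0965 and 0.095 at 30 µM AA132. At 6 and 10 µM it was 0.102 ± 0.00313 and 0.0974 ± 0.000682, again below all vehicle libraries. The 15 µM libraries also lay below, with a wider spread, at 0.118, 0.107 and 0.0876. At 0.1 and 1 µM the ratio was 0.129 ± 0.0112 and 0.131 ± 0.00273, and at 0.3 and 3 µM 0.124 ± 0.0158 and 0.124 ± 0.00242. AA147 gave 0.0819, 0.124 and 0.112, also below vehicle, with library 1 far below the other two. RNR1 itself was called under Tg alone of the 10 treatments.

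At 30 µM AA132 1 of the 27 rows rose, TRNY (0.35 ± 0.10, adjusted p = 0.0278), and 1 fell, TRNF (by 0.98 ± 0.29, adjusted p = 0.0312), where 7.05% of genes tested were called. Over the dose range 4 rows had called positive slopes and 4 negative ones, where 18.7% of genes were called. ND6, the complex I mRNA on the other strand just past ND5, had the steepest positive slope, 0.29 ± 0.06 per 10-fold dose (adjusted p = 0.000819), with 245 ± 43 CPM in vehicle and 374 ± 111 CPM at 30 µM. ATP8 had a slope of 0.17 ± 0.05 (adjusted p = 0.0142), but its level at 30 µM was not above vehicle. It measured 462 ± 38 CPM in vehicle, 382 ± 71.1 CPM at 0.1 µM, 518 ± 84.8 CPM at 6 µM and 432 ± 64.8 CPM at 30 µM. TRNF and TRNV, which flank RNR1, had slopes of -0.29 ± 0.07 each. The use of strand in counting is not given in the sources used here, so ND6 reads and reads of the long transcript from the opposite strand cannot be told apart.

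**Figure D4:**
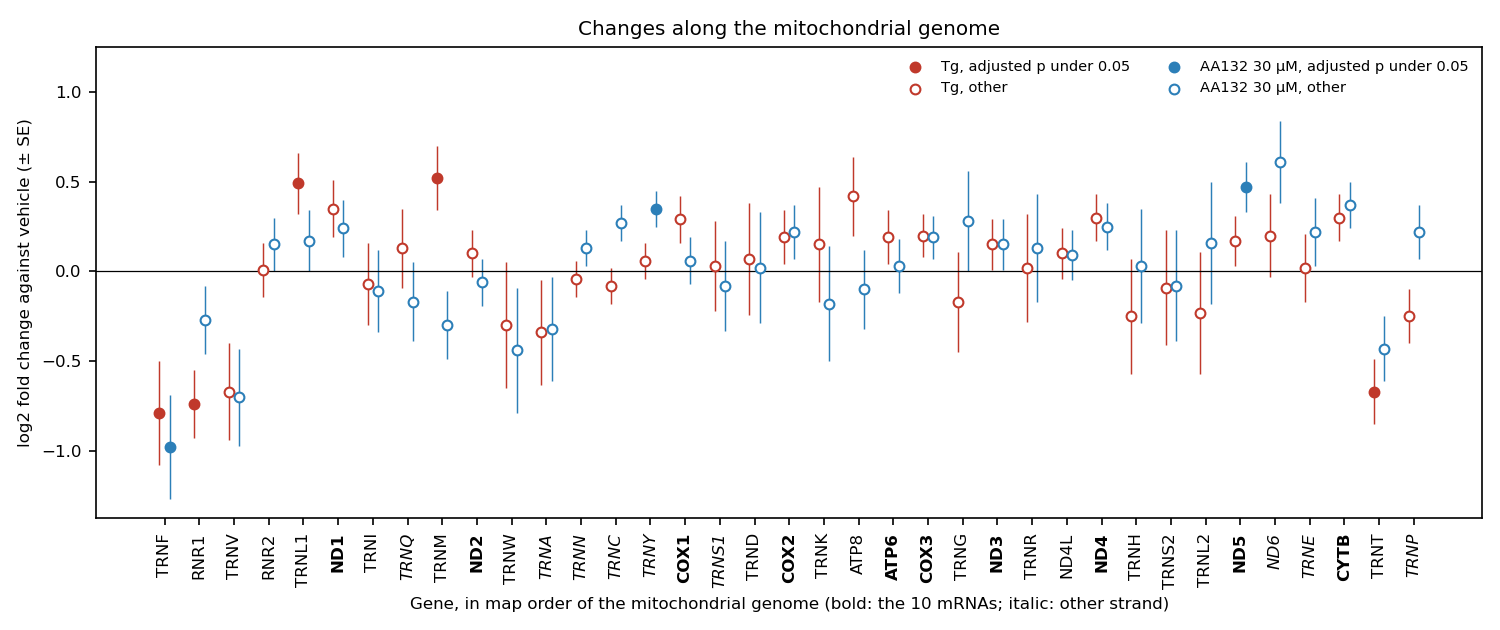
Fitted log2 fold change against vehicle (vertical axis) of all 37 mitochondrially encoded rows in map order (horizontal axis), for Tg in red and 30 µM AA132 in blue. Points are fitted values, bars 1 SE, and filled points passed an adjusted p of 0.05. TRNF, at the left end, is lower under both treatments, RNR1 is lower under Tg, and ND5 is the only filled point among the 10 mRNAs.

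Nuclear genes that make, process and translate these mRNAs moved in both directions under Tg, where 31.2% of all genes tested were called. Of 15 genes for mitochondrial DNA maintenance and transcription, 1 rose and 4 fell, including the RNA polymerase POLRMT (by 0.49 ± 0.10, adjusted p = 0.000132) and the DNA polymerase POLG (by 0.42 ± 0.06, adjusted p = 2.62e-07). TFB1M, which methylates the small ribosomal RNA, rose by 0.23 ± 0.08. Of 16 genes for RNA processing and modification, 3 rose and 7 fell, with a median of -0.16. ELAC2, which cuts the 3' ends of tRNAs, fell by 0.52 ± 0.05 (adjusted p = 2.81e-09), and KIAA0391 and TRMT10C, subunits of the enzyme that cuts their 5' ends, fell by 0.46 ± 0.08 and 0.43 ± 0.09. NSUN4, a methyltransferase of the small ribosomal RNA, rose by 0.31 ± 0.06.

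Of 16 tested genes for RNA stability, tailing and decay, 6 rose and 4 fell under Tg, against the same 31.2% called over all genes. Falls were largest for the RNA-binding proteins FASTKD1 (by 0.58 ± 0.08) and FASTKD5 (by 0.51 ± 0.06), and rises for PTCD2 (0.45 ± 0.08) and FASTK (0.31 ± 0.09). Among 13 translation genes 3 rose, led by C12orf65 (0.62 ± 0.12) and the initiation factor MTIF2 (0.44 ± 0.06), and 2 fell, the elongation factors TSFM (by 0.26 ± 0.08) and TUFM (by 0.24 ± 0.07). At 30 µM AA132 there were few calls in these lists, where 7.05% of genes tested were called. ELAC2 (by 0.19 ± 0.05, adjusted p = 0.0264), PUS1 (by 0.26 ± 0.07, adjusted p = 0.03) and PNPT1, the mitochondrial RNA-degrading enzyme (by 0.34 ± 0.07, adjusted p = 0.00154), fell, and no transcription or translation gene was called.

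Nuclear-encoded subunits of the same complexes went down or were not called under Tg. Falls were called for 2 of 7 core subunits of complex I, 4 of 9 subunits of complex III, 5 of 10 of complex IV and 6 of 14 of the ATP synthase, and no rise was called, where 31.2% of genes tested were called in either direction. COX6B1 fell by 0.50 ± 0.09 (525 ± 81.1 to 371 ± 24.3 CPM), UQCR10 by 0.44 ± 0.09, NDUFV2 by 0.40 ± 0.09 and ATP5G1, which encodes the rotor ring subunit, by 0.60 ± 0.08. The list medians were 0.03, -0.10, -0.20 and -0.15 in that order of complexes, where the mitochondrially encoded members had 0.20 and all genes tested 0.00485. Lower list medians were not particular to Tg. At 6 µM AA132 they were -0.14, -0.18, -0.16 and -0.18 in the same order, with no gene of these lists called. At 1 µM, also with no call, they were -0.13, -0.16, -0.08 and -0.11. These list values were not taken without vehicle library 1, which stood apart.

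Likeness of pattern was measured as Pearson's r over the 11 condition means of log2 CPM, which share the same libraries and scaling. The members' r with the mean of the other members ran from 0.73 for ND5 to 0.98 for ND4, so ND5 was the least like the rest. Among 9776 other genes with a mean of at least 10 CPM, the 5 most like the members' mean were ACP2 (0.96), BCL7B (0.94), RNR2 (0.94), RPN2 (0.93) and AP3S2 (0.93). RNR2 alone of these is encoded in mitochondria. These r values are the highest of 9776 over only 11 points, so high values can arise by selection alone, and they carry no test. Over the conditions ACP2 means spanned 61.8 to 71.3 CPM and RNR2 means 5996 to 8541 CPM.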

How the data were processed

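Per the labels, a company prepared the libraries from total RNA and read them on its DNBSEQ instruments. The deposited table gives expected counts (estimated counts of reads per gene), which the authors did not scale between libraries, per the file headers. The build is GRCh38.p7, per the submitters' processing notes. Aligner, counter, annotation and strand setting are not given in the sources used here. Of 38074 rows, 98 shared 45 names and were summed. The value 0.009, which stands for 0 and fills 43.5% of cells, was set to 0, and counts were rounded. Positions and sequences come from GENCODE v44 and the GRCh38 reference.

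All 33 libraries entered 1 fit of the edgeR 4.0.16 quasi-likelihood F-test in R 4.3.3, with TMM scaling and the edgeR filter on low counts (17793 genes). A call is a Benjamini-Hochberg adjusted p below 0.05 over all genes tested. CPM are TMM-scaled, and n counts libraries. The slope on log10 dose used the 24 AA132 libraries (17554 genes). The common dispersion corresponds to a CV of 9.09% between libraries. Intervals are the fitted value with a normal approximation. The script was checked on simulated data.

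Named genes are the 10 members, the other mitochondrial rows, HSPA5 and HMOX1, the 3 largest called rises and falls of each list under Tg and 30 µM AA132, and the 5 genes most alike in pattern. The members and lists were chosen with earlier results of these data known. Same-numbered libraries deviated together in every pair (correlations of 0.181 to 0.469) between AA132 and AA147 at 10 µM only, and a block on the number changed no call of a member there. In both of these conditions library 1 stood apart over all genes, and its part in the correlations was not tested. Some genes of the lists are not reported here.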

Additional observations from a re-analysis of the deposited data

How the results depend on the processing

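Scaling with DESeq2 size factors (DESeq2 1.42.0), scaling without the mitochondrial rows and the DESeq2 Wald test changed no count of called members. Library totals without TMM called 1 member (ND5) between AA132 30 µM and Tg, against 0. Without the low-count filter the calls were 5 for Tg, 2, 6, 4, 1, 2 and 5 for AA132 at 1, 3, 6, 10, 15 and 30 µM in that order, and 2 for AA132 30 µM against Tg. The cause was not tested. Fits of the 2 conditions alone called 4 members for Tg, 0 at 30 µM against vehicle and 1 for 30 µM against Tg. The slope called 0 members without the 30 µM dose. A block on the replicate number called 3 members under Tg (ND4, CYTB and COX1). Elsewhere the block changed no count of called members, and outside AA132 against AA147 the numbers did not pair the libraries, with same-number correlations from -0.552 to 0.321. Leaving out each library in turn gave 0 to 2 called members at 30 µM, 0 to 1 at 15 µM, 0 to 1 for 30 µM against Tg and 0 to 3 for the slope, where CYTB joined without 0.1 µM library 2 or 3 or 10 µM library 1, and COX2 without 0.1 µM library 2 or 10 µM library 1. Without vehicle library 2 ND5 was called at 15 µM. The sign of the members' median changed in such fits at 0.1, 10 and 15 µM and in both direct comparisons. Leaving out the out-of-step pair of libraries together was chosen after seeing the data and changed no count of called members. Counts of all genes called ranged from 3073 to 5769 for Tg and from 74 to 2017 for 30 µM AA132. Depth did not limit the members, each of which had at least 605 CPM in every library.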

Other observations

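The gene of ATP8, a small ATP synthase subunit, overlaps ATP6, and the ratio of their counts was not constant over the AA132 doses. The ratio of ATP8 to ATP6 CPM was 0.166, 0.171 and 0.195 in vehicle. At 3 µM it was 0.208, 0.234 and 0.226, and at 6 µM 0.224, 0.259 and 0.235, so both doses lay above the vehicle range, as did 10 µM with 0.212, 0.213 and 0.224. At 30 µM it was 0.175, 0.171 and 0.147, back within or below that range. Under Tg library 2 stood apart, with 978 CPM of ATP8 where the other two had 389 and 491 CPM. These values were noticed in the data and not tested, and both rows hold fractional counts, whose source is not given in the sources used here. Reads from the shared bases can belong to either gene, so the ratio does not show whether separate RNAs changed differently.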
